A study of Mus musculus with 24 samples.

Results

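Fabp5 and 7 further genes of fatty acid uptake and binding (Fabp3, Fabp1, Cd36, Slc27a1, Slc27a2, Slc27a4 and Lpl) were followed in the kidney RNA of mice after experimental myocardial infarction (MI). These 8 genes were taken by name from the 56941 genes of the deposited table. They were selected on results of the same kidneys: Fabp5 was chosen because it had been lower at both times after MI once sham replicate 8 was left out. The levels of Fabp5 against sham are therefore given as a description and were not tested. Of the 8 genes, 7 had enough counts to enter the model across all genes, and Fabp1 did not.

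The mice were male C57BL/6J wild-type animals aged 8 to 11 weeks at surgery. In the MI groups the left anterior descending coronary artery was ligated permanently, so the infarct was not reperfused, and kidneys were taken 5d or 28d later. Sham mice had surgery without the ligation, and their kidneys, taken at 5d, were the controls for both times. For the 28d kidneys, the longer interval since the operation and the older age therefore cannot be told apart from the infarct. RNA of 8 sham kidneys, 8 kidneys at 5d post-MI and 6 kidneys at 28d post-MI was used, each from a mouse of its own.

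Long-chain fatty acids reach the kidney bound to albumin or packed as triglyceride in lipoproteins. Lipoprotein lipase frees them in the capillary, the receptor CD36 and the fatty acid transport proteins of the Slc27a family move them into the cell and couple them to coenzyme A, and fatty acid binding proteins carry them inside the cell. Proximal tubule cells depend on the oxidation of fatty acids for energy, while FABP4 and FABP5 are the binding proteins of fat cells, with FABP5 also found in macrophages, endothelium and epidermis. All values are counts of mRNA 3′ ends, given in CPM, counts scaled to a common library total after TMM normalization, and they were not compared between genes.

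Total counts were between 2280618 and 3786275 per kidney. At these depths, 3 counts, the most that a count of 0 allows, came to between 0.809 and 1.33 CPM, a limit that covers counting error only. Markers of the proximal tubule summed to between 35965 and 72715 CPM, and the lowest sum belonged to 5d replicate 2. Most of this sum was Kap, the most abundant gene of the list, at 28486 to 61786 CPM. Adrenal cortex markers summed to 966 CPM in sham replicate 2, 719 CPM in sham replicate 6 and 84.0 CPM in 5d replicate 5, and to 4.27 CPM or less in every other kidney. White adipocyte markers, of which 9 of 11 passed the count filter, summed to between 380 and 1473 CPM in sham kidneys, 220 to 1177 CPM at 5d and 374 to 868 CPM at 28d, and none of the 11 was at 0 throughout a group. The lowest sham value was that of sham replicate 8. Of the 12 marker lists, 10 had genes in the test (the muscle and adrenal cortex lists had none), and among these the haemoglobin and red cell list was the single one with genes past the threshold, 4 of 5 tested at 5d against sham and 4 of 5 between 28d and 5d. In bulk tissue, fewer cells of a type and less RNA per cell cannot be told apart.

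No member with a test passed the threshold. Against sham, 0 of 6 tested members had an adjusted p under 0.05 at 5d post-MI, where 0.0704% of the 12780 genes tested did, and 0 of 6 at 28d post-MI, where 0.0235% did. Between 28d and 5d post-MI, 0 of 7 members did, against 0.415% of all genes. DESeq2 and limma voom also called 0 in each comparison, although at 28d against sham DESeq2 gave an adjusted p to 3860 genes and to 4 of the 6 members, without Fabp3 and Slc27a1. At an unadjusted p under 0.05, edgeR's quasi-likelihood test counted 0, 2 and 1 members in the 3 comparisons, with 7.90%, 8.68% and 9.05% of all genes past that mark. DESeq2 counted the same numbers, and limma voom counted 0, 0 and 1. The median log2 difference of the tested members was -0.01, 0.0072 and -0.03, beside medians over all genes of 0.00018, -0.0012 and -0.0046.

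**Figure D1:**
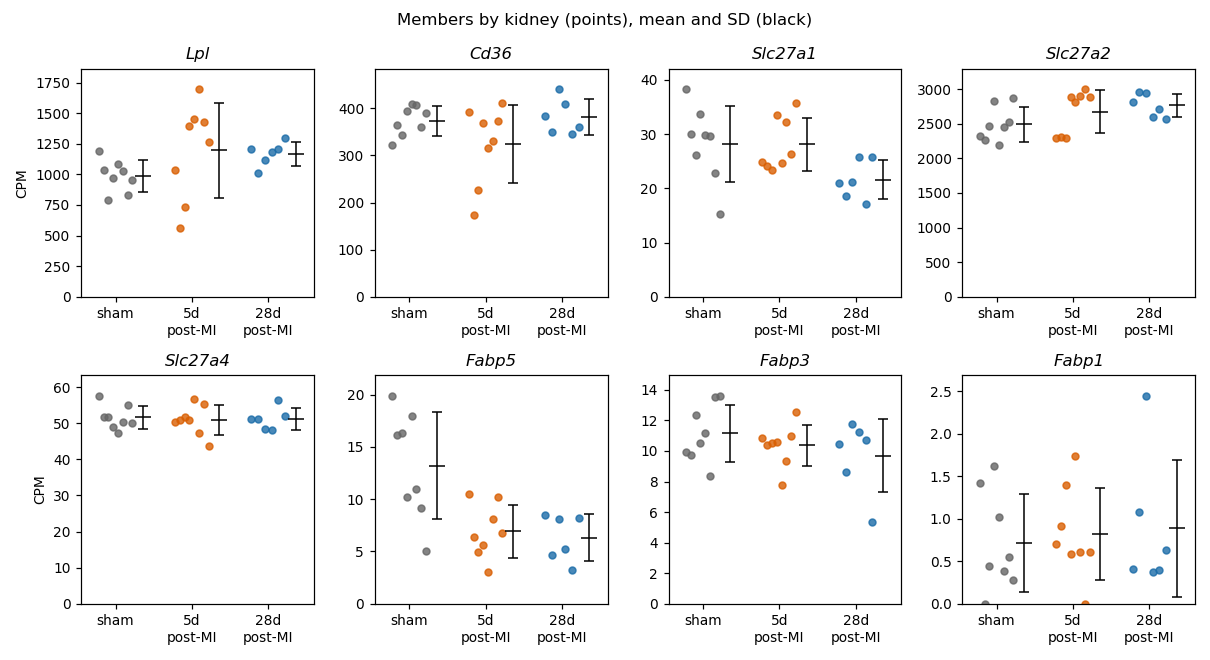
The level of each member in CPM (vertical axes, starting at 0) is plotted for each kidney as a point, by group, with the group mean and SD in black. Fabp5 was at or below 10.5 CPM in all 14 kidneys after MI, whereas the sham kidneys ran from 4.99 to 19.8 CPM, and Slc27a4 stayed between 43.7 and 57.5 CPM in all groups.

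Lpl encodes lipoprotein lipase, which cleaves triglyceride in lipoproteins at the capillary wall. The gene lies at chr8:68880491-68907448 on the plus strand (GRCm38, GENCODE M21) and overlaps no other annotated gene. Lpl was at 790 CPM in the lowest sham kidney, 999 CPM at the median and 1193 CPM in the highest (mean 987 ± 131, SD, n = 8). At 5d post-MI the lowest kidney was at 565, the median at 1329 and the highest at 1695 CPM (mean 1197 ± 388, SD, n = 8). At 28d post-MI the values were 1010, 1195 and 1300 CPM (mean 1171 ± 98.3, SD, n = 6). The groups overlapped. At 5d, 5 of 8 kidneys lay above every sham kidney while 2 of 8 lay below every sham kidney, and at 28d 3 of 6 lay above every sham kidney and 6 of 6 above the sham mean. The log2 difference from sham was 0.28 at 5d (95% interval -0.08 to 0.63, adjusted p = 0.741, edgeR) and 0.25 at 28d (-0.14 to 0.63, adjusted p = 0.773, edgeR). With the proximal tubule score in the model the 28d difference of Lpl was 0.14, and with the white adipocyte score it was 0.39.

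Within the 5d group the low values of Lpl lay in a few kidneys. Replicates 1, 2 and 3 of the 5d group had the lowest Lpl of that group, 1036, 565 and 732 CPM, and the other 5 ran from 1265 to 1695 CPM. The same 3 kidneys had the lowest Slc27a2 of the group, between 2288 and 2315 CPM, with the other 5 between 2819 and 2999 CPM. The markers of the proximal tubule were at 65081, 35965 and 52419 CPM in these 3 kidneys, against 56780 to 68651 CPM in the other 5. With the proximal tubule score in the model, the 5d difference from sham was 0.35 for Lpl and 0.16 for Slc27a2. With 5d replicate 2 left out, the log2 difference of Lpl from sham was 0.38, and its adjusted p was between 0.509 and 0.895 over all alternatives.

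Cd36 encodes a scavenger receptor that binds long-chain fatty acids at the plasma membrane and aids their uptake. The gene spans chr5:17781690-17888801 on the minus strand (GRCm38, GENCODE M21) with no overlapping gene. Sham kidneys had 322 CPM at the lowest, 377 at the median and 410 at the highest (mean 374 ± 31.9, SD, n = 8). At 5d post-MI Cd36 was at 174, 350 and 411 CPM (mean 324 ± 83.2, SD, n = 8), and 3 of 8 kidneys lay below every sham kidney. At 28d post-MI it was at 345, 372 and 440 CPM (mean 381 ± 37.5, SD, n = 6), within the sham range in all but 1 kidney. The log2 difference from sham was -0.21 at 5d (95% interval -0.48 to 0.07, adjusted p = 0.768, edgeR) and 0.03 at 28d (-0.27 to 0.33, adjusted p = 0.986, edgeR). The lowest value, 174 CPM, was that of 5d replicate 2, the kidney with the lowest proximal tubule markers, and without it the 5d difference was -0.11. It was -0.12 with the proximal tubule score in the model and -0.10 with the white adipocyte score.

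Slc27a2 encodes FATP2, which joins very long-chain fatty acids to coenzyme A and takes up fatty acids at the surface of proximal tubule cells. It lies at chr2:126552407-126588243 on the plus strand (GRCm38, GENCODE M21), and a noncoding RNA on the other strand, Gm26697, shares 1256 bases with its 5′ end. Its level was 2196, 2461 and 2880 CPM at the lowest, median and highest sham kidney (mean 2492 ± 248, SD, n = 8). At 5d post-MI it was at 2288, 2852 and 2999 CPM (mean 2675 ± 314, SD, n = 8). At 28d post-MI it was at 2576, 2763 and 2953 CPM (mean 2767 ± 168, SD, n = 6), above the sham mean in 6 of 6 kidneys and above every sham kidney in 2. The log2 difference from sham was 0.10 at 5d (95% interval -0.04 to 0.24, adjusted p = 0.768, edgeR) and 0.15 at 28d (0.0022 to 0.30, unadjusted p = 0.0470, adjusted p = 0.565, edgeR), so that the 28d difference failed the correction over all genes. Markers of the proximal tubule, 10 of 11 of which passed the filter, also summed to higher values at 28d, between 63898 and 72715 CPM, than in the sham kidneys, between 51707 and 62182 CPM. Most of that sum was Kap, at 53724 to 61786 CPM at 28d and 42725 to 51699 CPM in sham kidneys. The proximal tubule score, a mean of log2 CPM, overlapped between the groups, at 8.78 to 8.89 and 8.65 to 8.90. Of the 10 markers tested, 2 were lower than sham at 28d, 0 passed the threshold, and the median log2 difference was 0.09. With the proximal tubule score in the model the 28d difference of Slc27a2 from sham was 0.12 (SE 0.05, adjusted p = 0.513, edgeR), and the difference between 28d and 5d went from 0.05 to -0.04. Without the 3 kidneys with adrenal cortex genes the 5d difference was 0.06.

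Cd36 and Slc27a2 were the members whose levels varied with the proximal tubule markers among kidneys of 1 group, as described further on, and the bases before their start sites are shown to let the upstream sequence of the pair be compared. RefSeq entries (GRCm38.p6) were found for 6 of the 8 members. Each line gives the 250 bases before the RefSeq start site, 5′ to 3′ in the direction of the gene, for Cd36 chr5:17835897-17836146 on the minus strand and for Slc27a2 chr2:126552774-126553023 on the plus strand. Capitals mark AGGTCA read on either strand, the 6-base core site that peroxisome proliferator-activated receptors (PPARs), HNF4 and other nuclear receptors share.
Cd36: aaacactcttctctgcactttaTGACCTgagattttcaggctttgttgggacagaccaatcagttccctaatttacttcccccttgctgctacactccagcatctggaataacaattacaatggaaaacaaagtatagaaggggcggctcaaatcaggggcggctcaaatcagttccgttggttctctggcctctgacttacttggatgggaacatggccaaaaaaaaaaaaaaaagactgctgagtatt
Slc27a2: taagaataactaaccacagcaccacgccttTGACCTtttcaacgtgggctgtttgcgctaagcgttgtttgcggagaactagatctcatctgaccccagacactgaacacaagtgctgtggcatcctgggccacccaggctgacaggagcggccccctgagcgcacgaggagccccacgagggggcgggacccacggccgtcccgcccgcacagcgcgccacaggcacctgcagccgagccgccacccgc
Both windows held 1 core site, 228 bases before the start in Cd36 and 220 bases before it in Slc27a2. Both RefSeq starts lie inside the GENCODE spans of the genes. That of Cd36, at chr5:17835896, lies far inside the span, whose 5′ end is at 17888801. The Cd36 window is therefore not the one before the outermost start of the span. That of Slc27a2, at chr2:126553024, lies near the 5′ end of its span at 126552407. Of 32851 windows of this length from all promoters, 4607 (14%) held the core site on either strand. The full direct repeat that PPARs bind, AGGTCANAGGTCA, was in none of the members' windows and in 0.0335% of all windows. The core site was also present in the window of Fabp1, at 67 and 9 bases before the start. These matches describe letters and were not tested as binding sites.

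Slc27a1 encodes FATP1, the fatty acid transport protein best known from fat cells and muscle. It lies at chr8:71568882-71587302 on the plus strand (GRCm38, GENCODE M21) with no overlapping gene, and 10.6% of the 50-base words in the last 500 bases of its transcript also occur in transcripts of other genes, so that part of its counts could be lost or shared. Sham kidneys were at 15.3 CPM at the lowest, 29.7 at the median and 38.3 at the highest (mean 28.2 ± 6.97, SD, n = 8), and the lowest was sham replicate 8. At 5d post-MI the values were 23.5, 25.5 and 35.7 CPM (mean 28.1 ± 4.90, SD, n = 8). At 28d post-MI they were 17.1, 21.03 and 25.8 CPM (mean 21.5 ± 3.59, SD, n = 6), below the sham mean in 6 of 6 kidneys but not below the lowest sham kidney in any.

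The log2 difference of Slc27a1 from sham was 0.0060 at 5d (95% interval -0.28 to 0.29, adjusted p = 0.997, edgeR) and -0.38 at 28d (-0.70 to -0.06, unadjusted p = 0.0233, adjusted p = 0.490, edgeR). Between 28d and 5d post-MI it was -0.39 (-0.71 to -0.06, unadjusted p = 0.0219, adjusted p = 0.440, edgeR). Neither 28d difference passed the correction over all genes. White adipocyte markers had a median sum of 467 CPM at 28d against 901 CPM in sham kidneys and 828 CPM at 5d. With the white adipocyte score in the model, the 28d difference from sham was -0.16, and with the brown adipocyte score it was -0.06. The part of adipocytes in this difference was not tested. Without sham replicate 8 the 28d difference of Slc27a1 from sham was -0.48, and over all alternatives its adjusted p was between 0.0996 and 0.988.

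Slc27a4 encodes FATP4, a transport protein and acyl-CoA synthetase found in many epithelia, at chr2:29802634-29817522 on the plus strand (GRCm38, GENCODE M21). It hardly moved between kidneys. Sham kidneys were at 47.4, 51.1 and 57.5 CPM at the lowest, median and highest (mean 51.7 ± 3.28, SD, n = 8). The 5d kidneys were at 43.7, 50.9 and 56.7 CPM (mean 50.9 ± 4.17, SD, n = 8), and the 28d kidneys at 48.2, 51.2 and 56.4 CPM (mean 51.2 ± 2.99, SD, n = 6). The log2 differences from sham were -0.03 at 5d and -0.01 at 28d, with 95% intervals of -0.16 to 0.10 and -0.16 to 0.13 (adjusted p = 0.953 and 0.987, edgeR). Its within-group SD on the log2 scale, 0.10, was lower than that of all but 2.82% of the 2092 tested genes within 0.5 log2 units of its level.

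Fabp5 encodes the epidermal fatty acid binding protein, which carries fatty acids in the cytoplasm and to nuclear receptors. The gene lies at chr3:10012548-10016607 on the plus strand (GRCm38, GENCODE M21), overlaps no other gene, and shares no 50-base word of its last 500 transcript bases with another gene. Sham kidneys were at 4.99 CPM at the lowest, 13.6 at the median and 19.8 at the highest (mean 13.2 ± 5.11, SD, n = 8), from 18 to 70 counts. At 5d post-MI the values were 3.03, 6.56 and 10.5 CPM (mean 6.92 ± 2.56, SD, n = 8), from 7 to 30 counts. At 28d post-MI they were 3.18, 6.68 and 8.45 CPM (mean 6.30 ± 2.24, SD, n = 6), from 8 to 26 counts. Each of the 14 kidneys after MI lay under the mean of the sham group, and 2 of 8 at 5d and 2 of 6 at 28d lay under its lowest kidney. The lowest sham kidney was replicate 8, at 4.99 CPM, and the next was replicate 7, at 9.10 CPM. The 28d kidneys overlapped the sham kidneys through replicate 8 alone, whereas at 5d replicates 1 and 8, at 10.5 and 10.2 CPM, also lay above sham replicate 7.

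The log2 difference of Fabp5 from sham was -0.90 at 5d (SE 0.26, 95% interval -1.43 to -0.37) and -1.04 at 28d (SE 0.29, -1.64 to -0.44). Both comparisons share the sham kidneys, and both are the values the gene was chosen by, so their intervals are not read as a test. Without sham replicate 8 they were -1.04 and -1.17. Between the 2 times after MI, Fabp5 differed by -0.13 (SE 0.32, 95% interval -0.79 to 0.53, adjusted p = 0.951, edgeR). The choice did not use this difference itself but did use the values of both MI groups, so the test is not independent of it. Adipocyte markers were lower after MI as well, so a fit with their score cannot tell adipocyte content apart from the infarct. The part of adipocytes in the difference of Fabp5 was not tested. With the white adipocyte score in the model the difference from sham was -0.47 (SE 0.19) at 5d and -0.54 (SE 0.22) at 28d, and with the brown adipocyte score it was -0.59 (SE 0.20) and -0.32 (SE 0.27). Of the 9 white adipocyte markers tested, 9 were lower than sham at 5d and 9 at 28d, of which 0 passed the threshold at either time, and their median log2 difference was -0.44 at 5d and -0.89 at 28d. The white and brown adipocyte lists, from which the scores are built, were chosen with results of these kidneys known. The white list holds Lipe and Pnpla2, which the paper itself reported as downregulated at 28d, so its count partly restates that result. Brown adipocyte markers, 6 of 8 past the filter and none at 0 throughout a group, summed to between 78.2 and 478 CPM in sham kidneys, 58.9 and 358 CPM at 5d and 72.0 and 160 CPM at 28d, with 0 of 6 past the threshold at either time. The most abundant, Cox7a1, was at 52.4 to 91.5 CPM in sham kidneys, 50.3 to 71.1 CPM at 5d and 54.3 to 62.2 CPM at 28d, so its groups overlapped. All 6 tested were lower at both times, with a median log2 difference of -0.66 at 5d and -2.09 at 28d. At an unadjusted p under 0.05 with edgeR, 2 of these 6 were lower at 5d and 6 at 28d. Of the 9 white adipocyte markers, 3 were lower at that mark at 5d and 6 at 28d. Over all genes, 3.97% and 4.23% were, but both adipocyte lists were chosen with results known, so these shares are no independent comparison. Markers of other cell types were also lower. Of 8 macrophage markers, 8 were lower than sham at 5d and 6 at 28d (median log2 difference -0.33 and -0.08), with 0 past the threshold, 4 lower at an unadjusted p under 0.05 at 5d and 0 at 28d, and they summed to between 134 and 193 CPM in sham kidneys, 118 and 162 CPM at 5d and 136 and 168 CPM at 28d. Of 6 urothelium markers tested, 6 were lower at 5d and 4 at 28d (median -0.39 and -0.53), with 0 past the threshold, and the 8 on the list summed to between 51.9 and 137, 15.9 and 174, and 35.0 and 86.7 CPM. No macrophage or urothelium marker was at 0 throughout a group, and their part in the difference of Fabp5 was not tested.

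**Figure D2:**
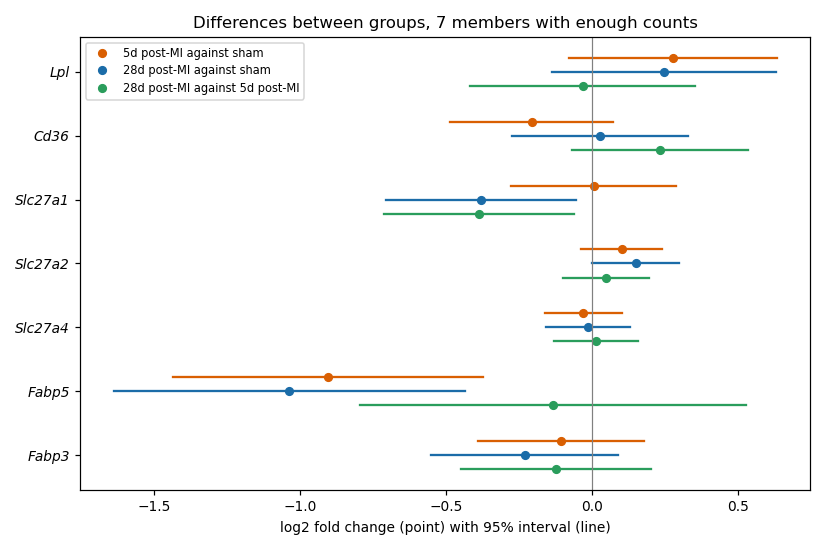
The log2 fold change (horizontal axis) of each of the 7 members with enough counts is drawn as a point with its 95% interval as a line, in 3 comparisons by colour. Slc27a4 has the narrowest intervals, all across 0, and Fabp5, which was chosen by its differences from sham, lies at -0.90 and -1.04 against sham and at -0.13 between the 2 times after MI.

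**Figure D3:**
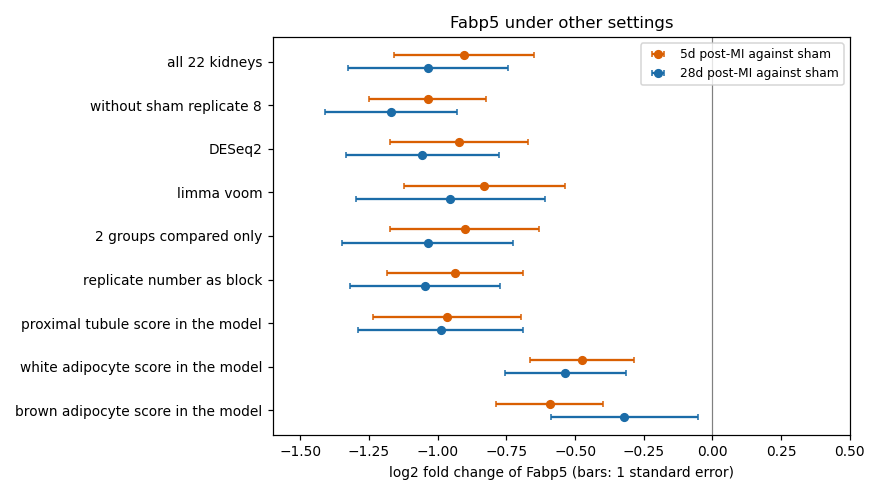
The log2 fold change of Fabp5 against sham (horizontal axis, bars of 1 standard error) is plotted under 9 settings, in orange at 5d and in blue at 28d post-MI. It lies between -0.83 and -1.17 in the first 7 settings and between -0.32 and -0.59 with an adipocyte score in the model.

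Fabp5 was also among the more variable genes inside the groups. Its within-group SD on the log2 scale was 0.56, higher than that of 97.4% of the 2269 tested genes within 0.5 log2 units of its level. The corresponding SDs were 0.27 for Fabp3, 0.28 for Cd36, 0.30 for Slc27a1, 0.14 for Slc27a2 and 0.36 for Lpl.

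Fabp3 encodes the heart-type fatty acid binding protein, which is also made in the distal nephron. It lies at chr4:130308595-130315463 on the plus strand (GRCm38, GENCODE M21), and Zcchc17 on the other strand shares 81 bases with its 3′ end. Of the 50-base words in the last 500 bases of its transcript, 27.9% also occur in the pseudogene Fabp3-ps1, so that reads could be split between them. Fabp3 was at 8.34, 10.8 and 13.6 CPM in the lowest, median and highest sham kidney (mean 11.2 ± 1.88, SD, n = 8). It was at 7.80, 10.5 and 12.5 CPM at 5d (mean 10.4 ± 1.36, SD, n = 8) and at 5.33, 10.6 and 11.8 CPM at 28d (mean 9.69 ± 2.39, SD, n = 6). The log2 differences from sham, -0.11 and -0.23, had 95% intervals of -0.39 to 0.18 and -0.55 to 0.09 (adjusted p = 0.916 and 0.740, edgeR). Without 28d replicate 7, the kidney at 5.33 CPM, the 28d difference was -0.09. The 5d difference was -0.06 without sham replicate 8 and -0.19 without the 3 kidneys with adrenal cortex genes. Fabp3-ps1 itself was at a mean of 5.17 ± 1.11 CPM in sham kidneys, 4.43 ± 1.87 at 5d and 4.37 ± 1.63 at 28d.

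Fabp1, the liver-type binding protein, is at chr6:71199827-71205023 on the plus strand (GRCm38, GENCODE M21). It was close to the limit of detection, with 0 to 6 counts in sham kidneys, 0 to 4 at 5d and 1 to 6 at 28d post-MI, and 0 counts in 1 sham and 1 5d kidney. Its medians were 0.497, 0.655 and 0.515 CPM, below the level of 3 counts, so that a difference was not detectable at this depth.

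The other binding proteins and transporters of the same families were fixed as part of a list of 15 genes of fatty acid binding and transport. Fabp4, the binding protein of fat cells and capillaries, was at 723 ± 298 CPM in sham kidneys, 488 ± 274 at 5d and 341 ± 120 at 28d (mean ± SD, n = 8, 8 and 6). Its log2 difference from sham was -0.56 at 5d (adjusted p = 0.776, edgeR) and -1.08 at 28d (unadjusted p = 0.0182, adjusted p = 0.462, edgeR). Slc27a3, a transporter with acyl-CoA synthetase activity, was at 7.98 ± 4.24, 5.26 ± 1.08 and 5.49 ± 1.40 CPM, and Fabp7, the brain-type binding protein, at 5.38 ± 1.34, 5.08 ± 2.82 and 3.75 ± 0.769 CPM. Fabp2, Pmp2 and Slc27a6 had 0 counts in all 22 kidneys, and Fabp6, Fabp9, Fabp12 and Slc27a5 had at most 2 counts in any kidney.

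Of the 59 genes in the 4 pathway lists, 47 were tested, and none passed an adjusted p under 0.05 in any of the 3 comparisons with edgeR. At an unadjusted p under 0.05, 3 were higher and 7 lower at 5d than in sham kidneys, 0 higher and 12 lower at 28d than in sham kidneys, and 2 higher and 7 lower at 28d than at 5d. Over all 12780 genes, 3.92% were higher and 3.97% lower at that mark at 5d, 4.45% higher and 4.23% lower at 28d, and 5.03% higher and 4.01% lower between 28d and 5d. The median log2 difference over the 47 was -0.03, -0.08 and -0.06. DESeq2 called 0 of 47, 2 of the 25 to which it gave an adjusted p, and 1 of 47, beside 0.274%, 0.777% and 0.728% of all genes with an adjusted p, and limma voom called 0 in each comparison, beside 0.0391%, 0.0391% and 0.391%.

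In fatty acid binding and transport, 8 of 15 genes were tested. Dbi, the acyl-CoA binding protein, was at 1410 ± 96.6 CPM in sham kidneys, 1309 ± 93.0 at 5d and 1235 ± 30.8 at 28d, with a log2 difference from sham of -0.19 at 28d (SE 0.05, unadjusted p = 0.000328, adjusted p = 0.149, edgeR). DESeq2 called that difference, with an adjusted p of 0.0288, as did edgeR without sham replicate 8, with an adjusted p of 0.0338. Cav1, which builds caveolae, was at 33.7 ± 9.33, 25.8 ± 5.53 and 27.7 ± 3.64 CPM, with a log2 difference of -0.36 at 5d (unadjusted p = 0.0165, adjusted p = 0.514, edgeR). The list's median difference from sham was -0.09 at 5d and -0.23 at 28d.

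In fatty acid activation, the coupling to coenzyme A, 8 of 10 genes were tested and the median difference from sham was -0.10 at 5d and -0.08 at 28d. Acsl5 was lowest in p at both times, at 43.2 ± 4.25 CPM in sham kidneys, 37.2 ± 4.602 at 5d and 36.5 ± 3.20 at 28d, with log2 differences of -0.21 and -0.25 (adjusted p = 0.472 and 0.377, edgeR). Acsl1, the main synthetase of fat and heart, was at 148 ± 39.1, 146 ± 24.3 and 110 ± 17.99 CPM, a difference from sham of -0.42 at 28d (adjusted p = 0.483, edgeR). Acsm2, a medium-chain synthetase of the proximal tubule, was at 2693 ± 446, 2486 ± 425 and 3140 ± 202 CPM, a difference of 0.34 between 28d and 5d (adjusted p = 0.354, edgeR). Acsm1 was at 119 ± 10.99, 115 ± 12.8 and 130 ± 13.4 CPM and Acsf2 at 8.17 ± 1.59, 6.36 ± 2.09 and 6.10 ± 1.81 CPM.

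Among genes that regulate lipoprotein lipase, 12 of 15 were tested. Apoc3, an apolipoprotein that inhibits the lipase, was at 13.7 ± 2.61 CPM in sham kidneys, 18.9 ± 2.17 at 5d and 13.5 ± 3.16 at 28d, and its log2 difference from sham was 0.48 at 5d (unadjusted p = 0.000488, adjusted p = 0.147, edgeR). Gpihbp1, which anchors the lipase to the endothelium, was at 19.3 ± 3.22, 15.4 ± 3.36 and 17.5 ± 4.44 CPM, with a difference of -0.31 at 5d (adjusted p = 0.573, edgeR). Apoc1 was at 14.8 ± 7.43, 12.6 ± 7.47 and 5.52 ± 2.25 CPM, with a difference of -1.37 at 28d (unadjusted p = 0.0105, adjusted p = 0.401, edgeR). Furin, a protease that cleaves the lipase, was at 214 ± 12.6, 203 ± 14.6 and 206 ± 17.3 CPM, and Sel1l, Lmf1 and Vldlr also differed by at most 0.14 on the log2 scale in any comparison.

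All 19 genes of PPAR targets of fatty acid oxidation were tested, with a median difference from sham of 0.04 at 5d and -0.10 at 28d. Cyp4a14, a fatty acid hydroxylase that PPARα induces, was at 19.3, 52.8 and 204 CPM in the lowest, median and highest sham kidney, at 68.8, 111 and 363 CPM at 5d and at 12.3, 24.4 and 33.2 CPM at 28d. The 28d kidneys all lay below the 5d kidneys, in the gene of lowest p among the 47 pathway genes tested in that comparison. The share of all genes that separate in this way was not counted. The log2 difference between 28d and 5d was -2.60 (SE 0.60, unadjusted p = 0.000343, adjusted p = 0.0655, edgeR), and it was called by DESeq2 (adjusted p = 0.000165), with the replicate number as a block (adjusted p = 0.0382) and in a fit to the 2 groups alone (adjusted p = 0.0436). Hadha, of mitochondrial beta-oxidation, was at 179 ± 14.6, 175 ± 19.5 and 156 ± 11.6 CPM, a difference of -0.20 from sham at 28d (adjusted p = 0.335, edgeR). Pdk4, a kinase that restrains glucose oxidation, was at 19.3 ± 7.93, 12.8 ± 6.57 and 10.4 ± 2.21 CPM, a difference of -0.89 from sham at 28d (adjusted p = 0.480, edgeR). Cpt1a, the gatekeeper of fatty acid entry into mitochondria, was at 239 ± 26.5, 260 ± 19.1 and 241 ± 12.2 CPM, a difference of 0.12 at 5d (adjusted p = 0.611, edgeR). Plin2, a lipid droplet coat protein, was at 62.5 ± 9.66, 54.0 ± 10.3 and 59.5 ± 6.10 CPM, and Pparg, the receptor of fat cell differentiation, at 6.01 ± 3.41, 3.59 ± 1.27 and 3.45 ± 1.23 CPM.

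**Figure D4:**
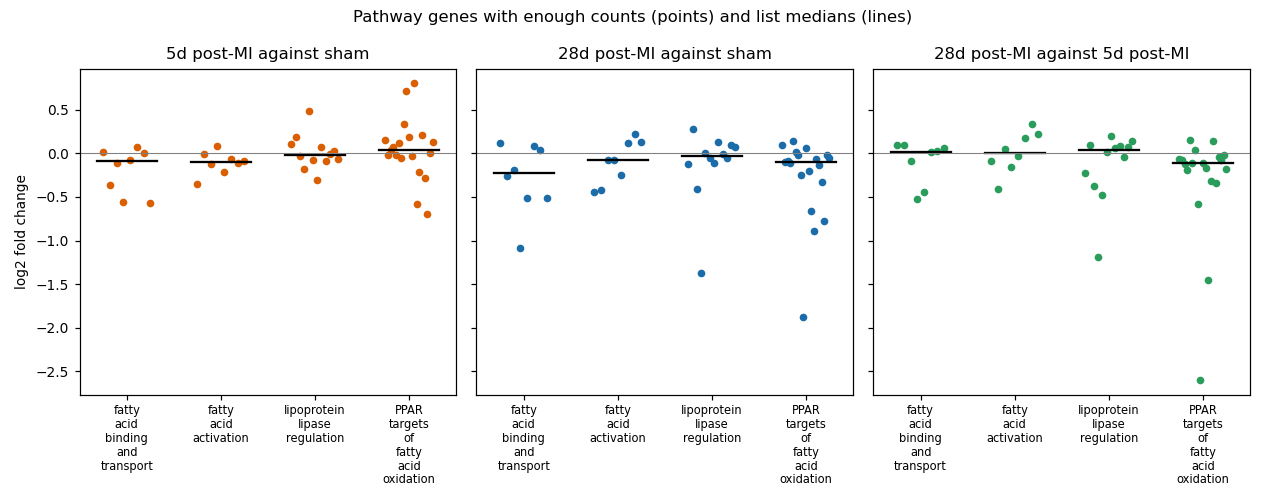
The log2 fold change (vertical axis) of each tested gene is plotted as a point by pathway list, with the list median as a black line, in 3 panels for the 3 comparisons. The medians lie between -0.23 and 0.04, and the lowest single points are Cyp4a14, at -1.88 between 28d and sham and at -2.60 between 28d and 5d.

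How the members varied among kidneys of 1 group was examined with each kidney's deviation from its group mean (log2 CPM, n = 22), so that differences between groups did not enter. Of 21 pairs of members, none had a correlation that passed the Benjamini-Hochberg correction (permutations within groups, 100000, two-sided). The pair with the highest coefficient was Cd36 and Lpl (Pearson's r = 0.71, permutation p = 0.0226, adjusted 0.158, Spearman's rho = 0.41, permutation p = 0.0997, adjusted 0.262), which rested on few kidneys: r was 0.47 without 5d replicate 2, 0.20 without the 2 kidneys farthest out, and 0.07 within sham kidneys. Fabp5 and Slc27a1 had r = 0.58 (permutation p = 0.0113, adjusted 0.158) and rho = 0.47 (permutation p = 0.0389, adjusted 0.262), with r = 0.39 without sham replicate 8 and 0.30 without the 2 kidneys farthest out. Slc27a1 and Lpl had r = 0.43 (permutation p = 0.0225, adjusted 0.158) and rho = 0.54 (permutation p = 0.0109, adjusted 0.114), with r = 0.41 without the 2 kidneys farthest out.

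The members were also set beside scores of cell type markers, each the mean log2 CPM of a list's markers, in 70 pairs of a member and a list. Fabp5 varied with the white adipocyte score (r = 0.77, permutation p = 2e-05, adjusted 0.0014, rho = 0.67, permutation p = 9e-04, adjusted 0.0282). The relation had the same sign in each group, with r = 0.94 in sham kidneys, 0.70 at 5d and 0.80 at 28d, and r was 0.73 without sham replicate 8 and 0.63 without the 2 kidneys farthest out. Slc27a1 varied with the same score (r = 0.68, permutation p = 0.00026, adjusted 0.0091, rho = 0.70, permutation p = 0.00051, adjusted 0.0282), with r = 0.71, 0.78 and 0.73 in the 3 groups and 0.64 without the 2 kidneys farthest out. With the brown adipocyte score, r was 0.68 for Fabp5 and 0.58 for Slc27a1 (permutation p = 0.00097 and 0.00523, adjusted 0.0170 and 0.0479), with rho = 0.59 and 0.57 (permutation p = 0.00633 and 0.0084, adjusted 0.0739 and 0.084), and r was 0.40 and 0.42 without the 2 kidneys farthest out. In the 28d kidneys the brown adipocyte relation had the other sign, with r = -0.20 for Fabp5 and -0.49 for Slc27a1. With the white adipocyte score, Lpl had r = 0.45 (permutation p = 0.117) and Cd36 r = 0.46 (permutation p = 0.104), both adjusted 0.382. Without the 2 kidneys farthest out these r were 0.76 and 0.63. In sham, 5d and 28d kidneys r was 0.43, 0.47 and 0.56 for Lpl and -0.24, 0.645 and 0.19 for Cd36. Fabp3, Slc27a2 and Slc27a4 had r = -0.12, -0.07 and -0.38 with that score.

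Slc27a2 varied with the proximal tubule score (r = 0.66, permutation p = 0.00169, adjusted 0.0237, rho = 0.68, permutation p = 0.0022, adjusted 0.0385), with r = 0.80, 0.66 and 0.40 in sham, 5d and 28d kidneys and 0.59 without the 2 kidneys farthest out. Cd36 did so through the 5d kidneys in the main. Its r was 0.80 (permutation p = 0.00364, adjusted 0.0425) and its rho 0.54 (permutation p = 0.0197, adjusted 0.142), with r = 0.92 at 5d, 0.39 in sham kidneys and 0.19 at 28d, 0.60 without 5d replicate 2 and 0.47 without the 2 kidneys farthest out. Lpl did not pass the correction with that score (r = 0.71, permutation p = 0.0127, adjusted 0.0890, rho = 0.38, permutation p = 0.1203, adjusted 0.443), and r was 0.27 without the 2 kidneys farthest out. Lpl against the endothelium score had r = -0.71 (permutation p = 0.0084, adjusted 0.0653) and rho = -0.60 (permutation p = 0.0159, adjusted 0.139), short of the correction, with r = -0.68 without the 2 kidneys farthest out, -0.47 in sham kidneys, -0.80 at 5d and 0.15 at 28d. Fabp5 with the macrophage score had r = 0.42 (permutation p = 0.0716, adjusted 0.358) and rho = 0.39 (permutation p = 0.0921, adjusted 0.396), with r = 0.31 in sham kidneys, 0.84 at 5d, -0.53 at 28d and 0.27 without the 2 kidneys farthest out. Fabp5 with the urothelium score had r = 0.42 (permutation p = 0.0618, adjusted 0.333) and rho = 0.38 (permutation p = 0.0988, adjusted 0.396). That r was 0.65 in sham kidneys, 0.30 at 5d, 0.37 at 28d and 0.44 without the 2 kidneys farthest out. Cd36 also varied against the collecting duct score (r = -0.61, permutation p = 0.00547, adjusted 0.0479, rho = -0.63, permutation p = 0.0045, adjusted 0.063) and the hepatocyte score (r = -0.58, permutation p = 0.00095, adjusted 0.0170, rho = -0.63, permutation p = 0.00121, adjusted 0.0282). These r were -0.64 and -0.50 without the 2 kidneys farthest out. The hepatocyte markers, 5 of 7 past the filter, summed to between 431 and 889 CPM over the 22 kidneys. Most of this sum was 1 gene, Ttr, at 396 to 839 CPM.

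**Figure D5:**
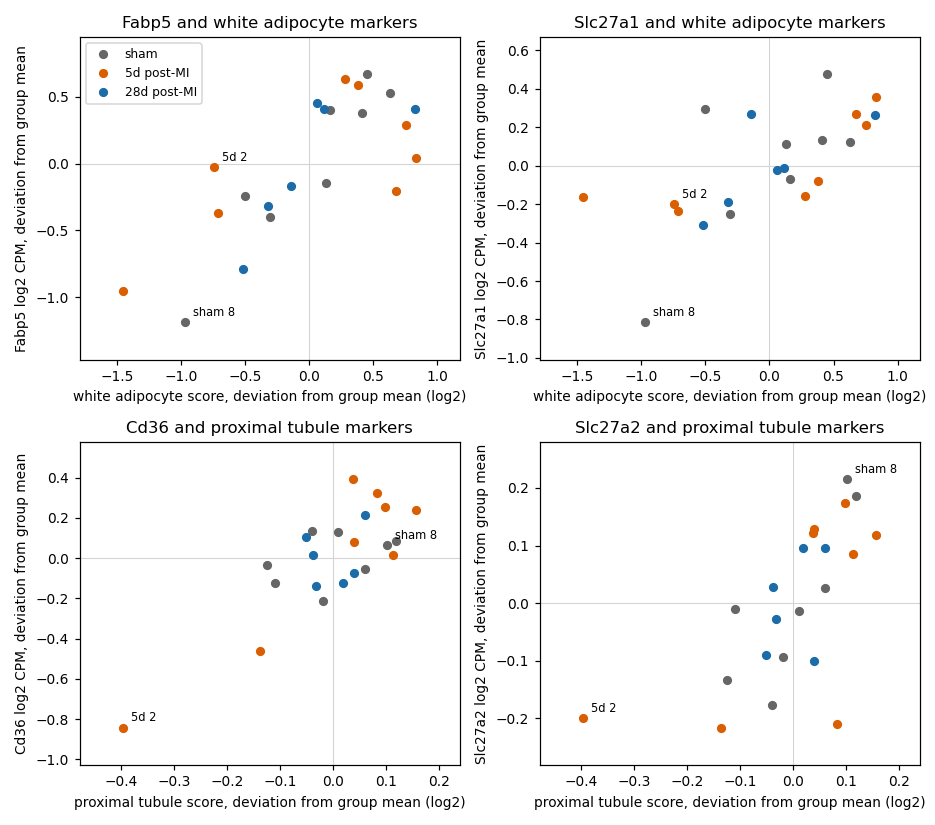
Each point is a kidney, with the deviation of a marker score from its group mean on the horizontal axis and that of a member's log2 CPM on the vertical axis. Fabp5 and Slc27a1 are drawn against the white adipocyte score (r = 0.77 and 0.68), and Cd36 and Slc27a2 against the proximal tubule score (r = 0.80 and 0.66), where 5d replicate 2 is the kidney farthest to the left.

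The genes whose levels followed a member most closely within groups were listed over 22 kidneys and 12779 genes, as a description. For Fabp5 they were Mgll, a lipase that completes triglyceride breakdown (r = 0.90), Cd1d1, which presents lipid antigens (r = 0.82), Apmap, an adipocyte membrane protein (r = 0.82), Cfd, the adipokine adipsin (r = 0.82), and Elovl6, a fatty acid elongase (r = 0.82). Without the 2 kidneys farthest out these r were 0.81, 0.75, 0.75, 0.68 and 0.67. Cfd was also first for Slc27a1 (r = 0.74), followed by Nudt7 (r = 0.73) and Pla2g16 (r = 0.73), and Cfd is itself on the white adipocyte list. The genes closest to Cd36 were Trp53inp2 (r = 0.94), Lypla1 (r = 0.92) and Slco1a1, an organic anion transporter of the proximal tubule (r = 0.91). Those closest to Lpl were Gabarapl2 (r = 0.89), Slc22a7, an organic anion transporter on the proximal tubule list (r = 0.87), and Slc9a8 (r = 0.85). For Slc27a2 the first was Ahcy (r = 0.85), for Fabp3 Tbl1x (r = 0.78, and 0.56 without the 2 kidneys farthest out) and for Slc27a4 Pheta1 (r = 0.77).

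The deposited values that the authors name tpm gave the same picture for single members. In exact permutation tests on log2(value + 1), two-sided, 0 of 22 tests over 8 members and 3 comparisons passed an adjusted p under 0.05. Lpl was higher than sham by 0.21 at 28d (exact p = 0.0463, adjusted 0.420) and Slc27a1 lower by 0.38 (difference -0.38, exact p = 0.0573, adjusted 0.420). Slc27a1 differed by -0.39 between 28d and 5d (exact p = 0.0147, adjusted 0.322), on a scale that understates the change of low genes.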

How the data were processed

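Kidney RNA was sequenced by the authors with MACE, which reads mRNA 3′ ends and carries unique molecular identifiers. According to the study's methods, reads were trimmed with Cutadapt, mapped to the mouse genome (mm10) and counted with HTSeq, whereas the submitters' processing notes name mm39, Bowtie2 and DESeq2. The annotation and the strand setting are not given in the sources used here. The deposited table holds whole-number counts per gene and values the authors name tpm, which are CPM scaled to each kidney's own total and not divided by length. Of 48 columns of values, 4 were not used, since they share names and could not be assigned to a kidney, which left 22 of 24 kidneys. Symbols were matched for 51948 of 56941 gene IDs. Coordinates are those of GENCODE M21 (GRCm38) and were not read from the table.

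Genes were kept by edgeR's filterByExpr (minimum count 10, 12780 genes), normalized by TMM and tested with edgeR's quasi-likelihood test on all 22 kidneys, with Benjamini-Hochberg adjustment over all genes and a threshold of 0.05. R 4.3.3, edgeR 4.0.16, limma 3.58.1, DESeq2 1.42.0 and Python 3.11.15 with matplotlib 3.10.9 were used. The script was tested on simulated data. Log2 CPM used a prior count of 2. Alternatives were other normalizations, tools, filters, covariates and kidneys. Replicates are separate mice. Same-numbered kidneys of different groups did not deviate together (mean r 0.0053 over 18 pairs), so the numbers were not taken as pairs. The members, the 4 pathway lists, the 12 marker lists and the tests were chosen with earlier results of these data known. Genes named were the members, the other genes of both families with counts, the 3 of lowest p in a list and comparison, overlapping genes and copies, and the 5 genes most like Fabp5 and 3 most like each other member. A gene that this rule names is not reported here.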

Additional observations from a re-analysis of the deposited data

Results flagged for a closer look

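Single kidneys stood apart from their group by Dixon's test in 6 of 60 sets of values, where chance gives about 1 in 20. Fabp1 was at 2.44 CPM in 28d replicate 3, with the nearest kidney at 1.07 CPM. The white adipocyte markers summed to 868 CPM in 28d replicate 7, with the nearest at 532 CPM. The thick limb and distal tubule markers summed to 3025 CPM in 5d replicate 2, the kidney lowest in Cd36 and Lpl, with the nearest at 2634 CPM. The urothelium markers summed to 174 CPM in 5d replicate 7, with the nearest at 78.5 CPM. The adrenal cortex markers summed to 84.0 CPM in 5d replicate 5, with the nearest at 4.27 CPM. The haemoglobin and red cell markers summed to 2239 CPM in sham replicate 4, with the nearest at 3330 CPM.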

How the results depend on the processing

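The count of members past the threshold was 0 in each comparison under all 32 alternatives, with 2 members left without an adjusted p by DESeq2 at 28d against sham. Among these, the proximal tubule score as a covariate and the fit without the 3 kidneys with adrenal cortex genes, were chosen after seeing the data. Pathway genes past the threshold went from 0 to 1 at 5d (Apoc3) without the filter on low counts, from 0 to 2 at 28d against sham (Cyp4a14 and Dbi) with DESeq2 and to 1 (Dbi) without the filter, and from 0 to 1 (Cyp4a14) between 28d and 5d with DESeq2, with only the 2 groups compared and with the replicate number as a block. With each kidney left out in turn they were between 0 and 1 at 28d against sham, with 1 without sham replicate 8, and between 0 and 1 between 28d and 5d, with 1 without sham replicate 3 or 5d replicate 1. The cause of these changes was not tested. The replicate block changed no other call of a member or pathway gene.

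Differences near 0 changed sign without passing the threshold. Between 28d and 5d, Lpl was at 0.051 with limma voom, 0.024 with the brown adipocyte score, 0.10 with the replicate block and 0.00297 without the kidneys with adrenal cortex genes, Slc27a4 at -0.00340 with the brown adipocyte score and -0.012 with the replicate block, Fabp5 at 0.27 with the brown adipocyte score and Slc27a2 at -0.039 with the proximal tubule score. Slc27a1 at 5d was at -0.0049 with the replicate block and -0.011 without the kidneys with adrenal cortex genes, Cd36 at 28d at -0.059 with the proximal tubule score, and the correlation of Slc27a4 and Lpl was -0.049 in the deposited tpm. With each kidney left out, Slc27a1 at 5d ran from -0.093 to 0.088, Slc27a4 from -0.051 to 0.00095 at 5d, from -0.042 to 0.011 at 28d and from -0.015 to 0.038 between the times, Cd36 at 28d from -0.017 to 0.055, and between the times Lpl from -0.14 to 0.057 and Fabp3 from -0.19 to 0.012. Over all alternatives, Fabp5 against sham ran from -1.04 to -0.47 at 5d and from -1.17 to -0.32 at 28d. The gene was chosen by these differences in the same kidneys, so their sign follows from the choice and was not tested.

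All genes past the threshold numbered 9 at 5d, 3 at 28d and 53 between the times with edgeR, and 35, 30 and 93 with DESeq2, 80, 94 and 160 without the filter, 2, 31 and 26 with only the 2 groups compared, and 2, 24 and 80 with the replicate block. With each kidney left out they ran from 1 to 38, from 0 to 29 and from 41 to 84. Members with few counts, Fabp5, Fabp3 and Fabp1, are limited by depth, since Fabp5 rests on 7 to 70 counts per kidney.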
